A study of Mus musculus with 5 samples.

Results

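The NR4A orphan nuclear receptors are a family of 3 genes, Nr4a1, Nr4a2 and Nr4a3, chosen by gene name among 21667 genes listed for mouse epidermis. All 3 were listed and all 3 entered the tests. Their levels were compared between 2 libraries of skin given forskolin (10 µM), 2 libraries of skin given cAMP (1.325 mM) and 1 library labelled untreated, called the control. Forskolin activates adenylyl cyclase, the enzyme that makes cAMP, so the series set an activator of the pathway beside its messenger to follow what lies downstream of the transcription factor Creb in the hair cycle. Every library came from the total back epidermis of wild-type male C57BL/6 mice at postnatal day 49. The back was shaved, the compounds were applied in DMSO and a lotion 3 times over 5 days, and the epidermis was freed by dissection and an overnight trypsin step. Whether the control skin was given lotion is not in the labels. Nor do they tie the 2 libraries of a treatment to different mice, so the library-to-library spread may be technical. The p-values for genes rest mostly on that spread over all tested genes, rather than on the gene's own libraries.

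NR4A proteins bind DNA as transcription factors, and no natural ligand is needed for their activity. They act mainly through how much of them is made. Their genes are immediate-early genes: a rise in cAMP, growth factors or stress switches them on within a short time, through CREB and other factors already present in the cell, and their transcripts decay quickly. In skin, melanocytes are known to induce them when cAMP rises.

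Members of the family carry CREB sites close to their start. The sequence before the start of each gene is shown because the treatments target the cAMP pathway and CREB binds the cAMP response element. The level of cAMP in the skin is not among these data. The short core of that element, TGACG or CGTCA on the opposite strand, is in capitals. Sequences are from RefSeq (GRCm38.p6), 5′ to 3′ on the strand of the gene, at chr15:101266596-101266845 (plus strand), chr2:57124004-57124253 (minus strand) and chr4:48045055-48045152 (plus strand).
Nr4a1: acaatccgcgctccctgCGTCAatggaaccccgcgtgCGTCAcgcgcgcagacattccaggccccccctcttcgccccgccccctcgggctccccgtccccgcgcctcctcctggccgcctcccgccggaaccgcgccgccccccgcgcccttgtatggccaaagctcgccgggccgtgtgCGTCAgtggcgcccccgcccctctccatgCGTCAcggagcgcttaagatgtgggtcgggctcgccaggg
Nr4a2: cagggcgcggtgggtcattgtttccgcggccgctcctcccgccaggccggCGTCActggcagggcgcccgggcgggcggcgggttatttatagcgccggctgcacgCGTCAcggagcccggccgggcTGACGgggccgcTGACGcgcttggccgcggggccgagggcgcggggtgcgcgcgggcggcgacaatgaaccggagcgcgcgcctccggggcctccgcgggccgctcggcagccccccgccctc
Nr4a3: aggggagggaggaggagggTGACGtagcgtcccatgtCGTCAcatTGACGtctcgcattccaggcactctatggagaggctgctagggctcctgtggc
The Nr4a3 stretch ends where the deposited table starts its first exon, 152 bases before the RefSeq start.

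In windows of 300 bases, from 250 before to 50 after the RefSeq start, each of the 3 genes held 4 cores. Of 32851 RefSeq windows of the same length, 76 (0.231%) held 4 or more, these 3 included, and 20.8% held at least 1. In Nr4a1 all 4 were in reverse orientation, at positions -233, -213, -69 and -40 from the start. Nr4a2 had reverse cores at -200 and -144 and forward ones at -123 and -111. Nr4a3 had cores at -231, -213 and -205 and a further one at -147, inside the first exon of the table's transcript and so outside the printed stretch. The full element TGACGTCA, in which a forward and a reverse core overlap, was in none of the 3 windows and in 1.79% of all windows. The element that NR4A receptors themselves bind, AAAGGTCA on either strand, was also in none of the 3 and in 1.51% of all. These windows were rich in G and C, at 72.3% for Nr4a1, 81.7% for Nr4a2 and 64.7% for Nr4a3, against a median of 52.7% over all windows. Such matches describe the letters only; no binding was measured.

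**Figure D1:**
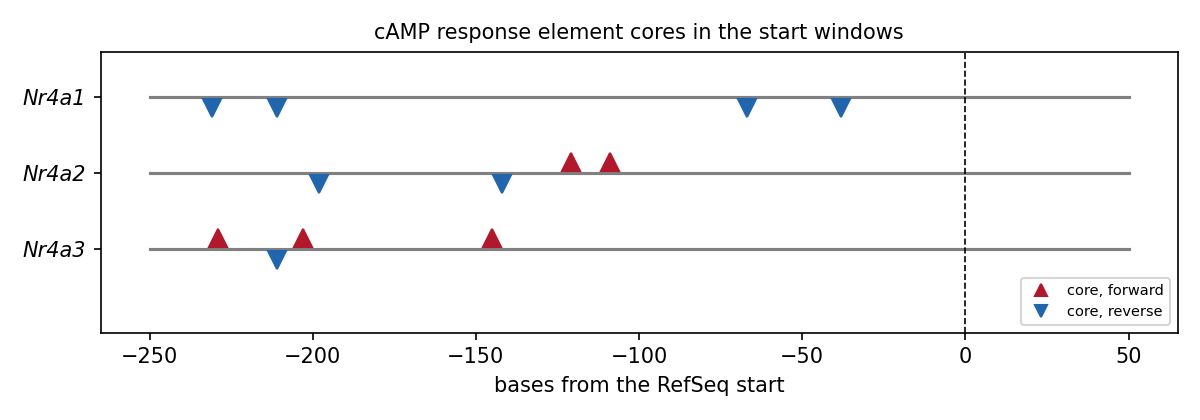
Positions of the TGACG core in the 300-base windows around the RefSeq starts of the 3 NR4A genes, in bases from the start (dashed line); upward triangles mark forward and downward triangles reverse cores, each at its middle base. Each gene has 4, all before the start, and those of Nr4a1 are all in reverse orientation.

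The deposited unit is CPM per transcript, that is, reads scaled to the size of a library, here summed per gene. Treated libraries and the control differed in make-up. The mitochondrial share was 43.1% to 58.0% in treated libraries and 69.3% in the control, and the share of nuclear genes, without pseudogenes and rRNA, was 25.9% to 38.0% in treated libraries and 7.90% in the control. Over all tested genes the median difference from the control was 1.69 log2 units with forskolin and 1.66 with cAMP. Dividing by median-of-ratios size factors moved these medians to 0.21 and 0.20, so each comparison with the control is given on both scales. If the offset that stands in place of 0 is 0.0001 read, the libraries held 34200000 to 51700000 reads, and 12 of the 15 NR4A values lay within 0.1 read of a whole number. Keratinocyte markers were all present, with 9 of 9 at 1 CPM or more in every library.

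Nr4a1, also called Nur77, encodes the founding member of the family and was the only one of the 3 above the level of 3 reads in the control. It is on chromosome 15 at 101266846 to 101274792 (ENSMUSG00000023034), and the table lists 1 transcript of 7 exons. Its level was 51.7 and 14.2 CPM with forskolin, 23.6 and 8.75 CPM with cAMP, and 1.62 CPM, about 80 reads, in the control. All 4 treated libraries lay above the control, and the forskolin and cAMP libraries overlapped.

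Nr4a2, or Nurr1, is best known for its need in midbrain dopamine neurons. It lies on chromosome 2 at 57106830 to 57124003 (ENSMUSG00000026826, minus strand). Its level was 16.2 and 2.93 CPM with forskolin, 0.910 and 0.497 CPM with cAMP, and 0.0203 CPM, which is 1 read, in the control. Both forskolin libraries lay above both cAMP libraries, which lay above the control.

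Nr4a3, or Nor1, lies on chromosome 4 at 48045153 to 48086447 (ENSMUSG00000028341). Its level was 43.0 and 11.1 CPM with forskolin, 4.61 and 1.93 CPM with cAMP, and again 1 read, 0.0203 CPM, in the control. The groups did not overlap. The lowest forskolin value was 2.41 times the highest cAMP value for Nr4a3 and 3.23 times for Nr4a2, but 0.603 times for Nr4a1.

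**Figure D2:**
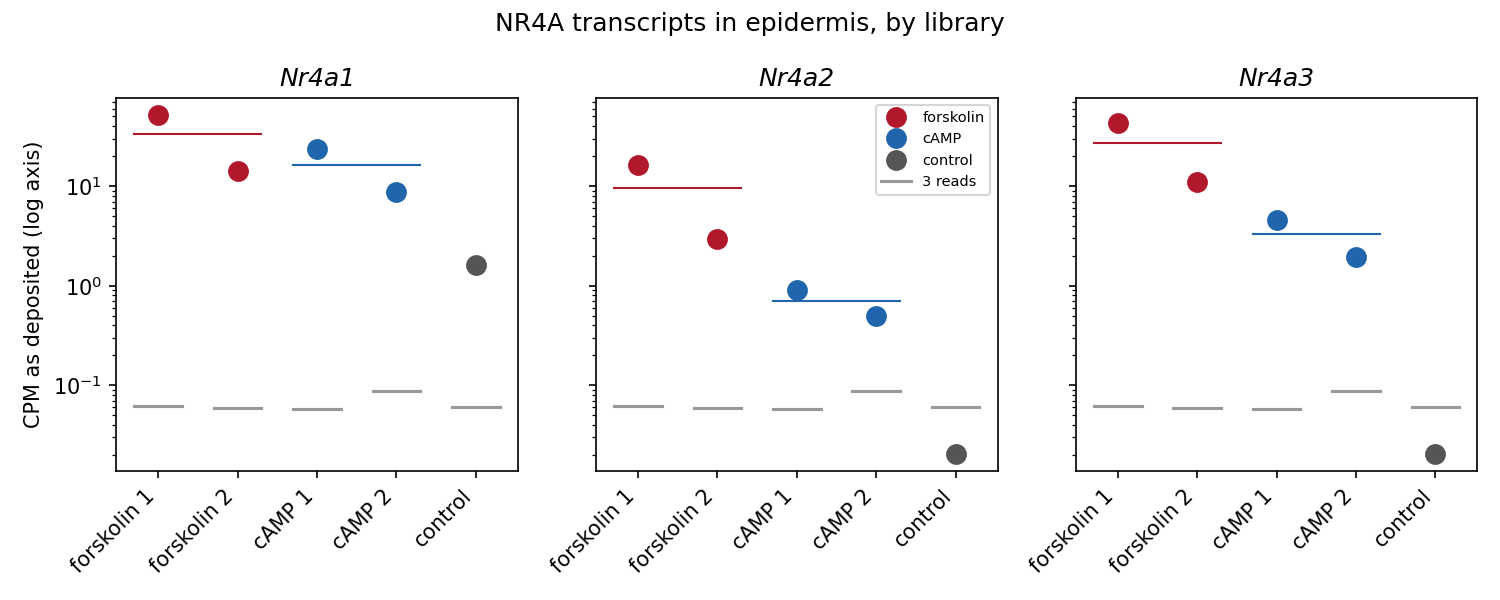
CPM as deposited of Nr4a1, Nr4a2 and Nr4a3 in each library, on a log axis; lines over 2 libraries are group means and grey dashes the level of 3 reads. Nr4a2 and Nr4a3 are under 3 reads in the control, and Nr4a1 stands at 1.62 CPM there.

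Per kilobase of transcript, with each listed transcript divided by its GENCODE M21 length, the order of the 3 genes was the same in all 4 treated libraries. Nr4a1 stood at 20.9 and 5.75 CPM per kb with forskolin and 9.53 and 3.53 with cAMP. Nr4a3 came next, at 8.24 and 2.78 CPM per kb with forskolin and 0.909 and 0.381 with cAMP. Nr4a2 was lowest, at 5.97 and 1.19 CPM per kb with forskolin and 0.291 and 0.159 with cAMP. Within forskolin, the spread between libraries was wider than the step between neighbours in this order, so neighbours overlapped there. With cAMP, the range of Nr4a1 lay above that of Nr4a3, and that of Nr4a3 above that of Nr4a2.

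Replicate libraries differed in all 3 genes. Forskolin 1 was 3.63 times forskolin 2 for Nr4a1, 5.52 times for Nr4a2 and 3.88 times for Nr4a3. On the log2(CPM + 1) scale these gaps were larger than those of 98.8%, 99.4% and 99.0% of the 13764 tested genes. cAMP 1 was 2.70, 1.83 and 2.39 times cAMP 2 for Nr4a1, Nr4a2 and Nr4a3, and with median-of-ratios scaling 1.84, 1.25 and 1.63 times. That scaling left the forskolin gaps at 3.37, 5.12 and 3.60 times. In limma a gene's own spread had little weight, with 2 residual against 360.2 prior degrees of freedom (16.4 with scaling). The SEs and intervals below therefore do not fully reflect these wide forskolin gaps.

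Forskolin against control asks what an adenylyl cyclase activator did to the epidermis relative to the untreated library. All 3 genes rose with forskolin on both scales. Of all tested genes, 66.3% were called higher and 0.341% lower as deposited, and 14.9% higher and 6.79% lower with median-of-ratios scaling, so as deposited a rise was the common result. Nr4a3 differed by 4.50 ± 0.60 log2 units (estimate ± SE; limma adjusted p = 2.01e-10). After median-of-ratios scaling its difference was 4.02 ± 0.58 (adjusted p = 0.000161). It ranked 29 of 13764 genes from the highest as deposited and 14 after scaling. In reads, Nr4a3 was 1318 times the control (95% exact interval 236 to 52064) and Nr4a2 465 times (83.3 to 18389), intervals that cover counting error only and are wide because the control held 1 read of each. With median-of-ratios scaling these ratios were 315 (from 56.4) and 111 (from 19.9).

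Nr4a1 rose with forskolin by 3.44 ± 0.59 log2 units (limma adjusted p = 2.97e-07), or 20.1 times in reads (16.1 to 25.4), and by 1.82 ± 0.54 after median-of-ratios scaling (adjusted p = 0.0239), or 4.80 times (3.85 to 6.07). The read intervals of Nr4a1 also cover counting error only. Its scaled values were 36.6 and 10.9 with forskolin and 4.98 in the control. Without forskolin 1 the Nr4a1 difference was 2.54, and it did not pass with quantile normalization (1.68, adjusted p = 0.0536). Nr4a2 rose by 3.01 ± 0.66 (adjusted p = 4.61e-05) and by 2.58 ± 0.64 after scaling (adjusted p = 0.00900). Without forskolin 1 Nr4a2 was at 1.95 (adjusted p = 0.0654), with quantile normalization at 1.45 (0.139) and with no filter on low values at 3.01 (0.0582), and none of these passed. With median-of-ratios scaling and forskolin 1 left out, the adjusted p was 0.194 for Nr4a1 (0.99 log2 units) and 0.106 for Nr4a2 (1.61). On that scale Nr4a1 also did not pass without cAMP 1 (adjusted p = 0.0616) or without cAMP 2 (0.0603), which enter only through the shared spread. Nr4a3 passed under each of 14 other settings, at an adjusted p of at most 0.0235, and in the 4 fits that joined that scaling with a left-out library, at 0.00516 or less.

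The question for cAMP is what the messenger itself did, set against the same control library. Nr4a1 and Nr4a3 rose as deposited, and no NR4A gene passed with median-of-ratios scaling. Of all tested genes, 65.1% were called higher and 0.436% lower as deposited, and 15.4% higher and 7.23% lower with that scaling. Nr4a1 was higher by 2.56 ± 0.59 log2 units (limma adjusted p = 9.54e-05), or 10.9 times in reads (8.72 to 13.9). After median-of-ratios scaling Nr4a1 was at 0.97 ± 0.54 (adjusted p = 0.209), or 2.49 times (1.99 to 3.15). All read intervals here cover counting error only and leave out the spread between libraries. Scaled Nr4a1 values were 14.4 and 7.84 with cAMP and 4.98 in the control. Nr4a3 was higher by 1.99 ± 0.60 (adjusted p = 0.00282), but at 1.52 without cAMP 1 (adjusted p = 0.0692) and at 1.60 ± 0.58 after scaling (adjusted p = 0.0538). Nr4a2 did not pass, at 0.73 ± 0.66 as deposited (adjusted p = 0.308) and 0.50 ± 0.64 after scaling (adjusted p = 0.595). In reads, Nr4a3 was 175 times the control (31.2 to 6930) and Nr4a2 36.8 times (6.38 to 1477). With median-of-ratios scaling these ratios were 39.8 (7.09 to 1577) and 8.38 (1.45 to 336). The pseudocount of 1 compresses such low values: with a pseudocount of 0.1 Nr4a2 passed, at 2.69 log2 units (adjusted p = 0.0321).

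Forskolin against cAMP sets the treated libraries against each other. Nr4a2 and Nr4a3 were higher with forskolin than with cAMP, and Nr4a1 did not pass, where 0.189% of tested genes, 26 of 13764, were called higher and as many lower. Nr4a3 differed by 2.51 ± 0.49 log2 units (95% interval 1.54 to 3.48; limma adjusted p = 0.000617), with means of 27.0 ± 22.6 CPM with forskolin and 3.27 ± 1.89 CPM with cAMP (SD, n = 2 each). Nr4a2 differed by 2.28 ± 0.54 (1.23 to 3.34; adjusted p = 0.0137), with means of 9.57 ± 9.38 and 0.704 ± 0.291 CPM. Nr4a1 was at 0.87 ± 0.48 (-0.07 to 1.81; adjusted p = 0.775), with means of 33.0 ± 26.5 CPM with forskolin and 16.2 ± 10.5 CPM with cAMP. Nr4a3 ranked 9 and Nr4a2 14 of 13764 genes from the highest. The size of the difference changed little with median-of-ratios scaling, at 2.42 ± 0.47 for Nr4a3 (adjusted p = 0.0325) and 2.08 ± 0.52 for Nr4a2, which then did not pass (adjusted p = 0.0896), where 0.124% of genes were called higher and 0.320% lower.

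These differences between treatments rested in part on forskolin 1. Without forskolin 1 Nr4a3 was at 1.58, Nr4a2 at 1.22 and Nr4a1 at -0.024 (limma adjusted p = 0.99997 for each). Without cAMP 2 Nr4a3 was at 2.04 (0.207) and Nr4a2 at 2.11 (0.253), and without cAMP 1 Nr4a2 was at 2.46 (0.123), none past the threshold. Nr4a3 passed without cAMP 1, at 2.98 (0.0396). Without forskolin 2 both passed, Nr4a3 at 3.44 (adjusted p = 0.00150) and Nr4a2 at 3.35 (0.00614).

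**Figure D3:**
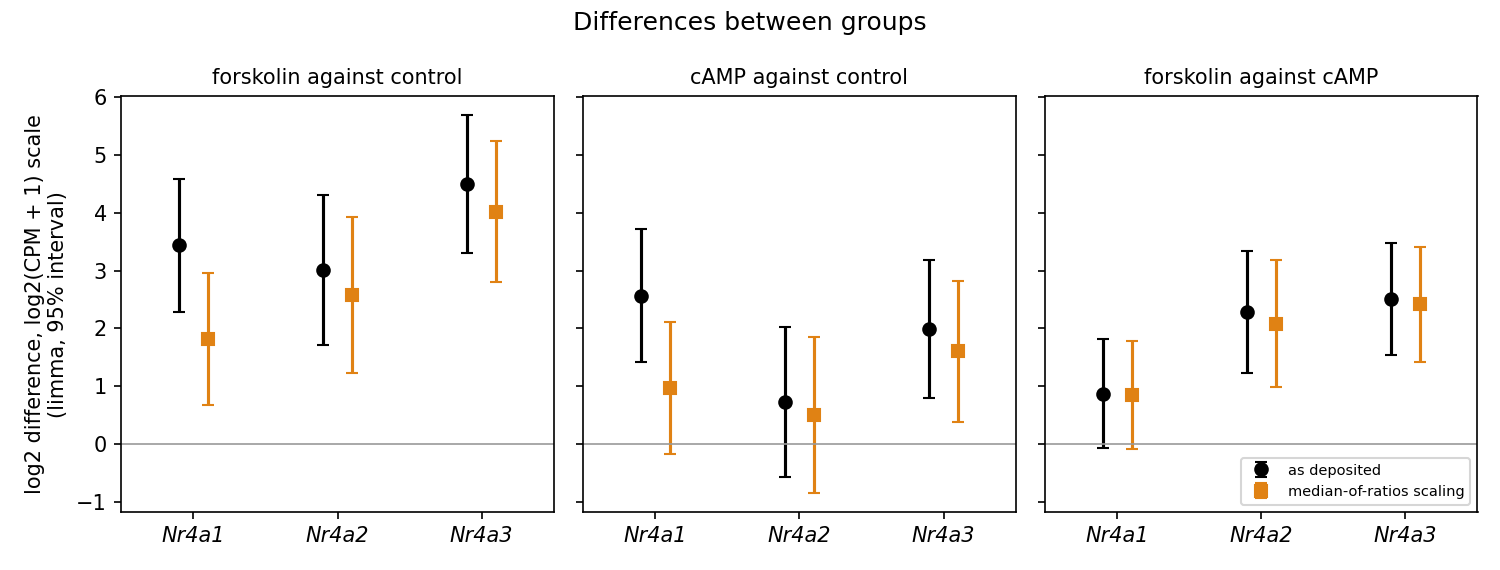
Differences between groups for each NR4A gene on the log2(CPM + 1) scale, with limma's 95% interval, as deposited (circles) and with median-of-ratios scaling (squares). Against the control, Nr4a1 drops from 3.44 as deposited to 1.82 with scaling for forskolin; for forskolin against cAMP both scalings give nearly the same values.

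Which listed transcripts of Nr4a2 and Nr4a3 held the values differed between the treatments, and also between the 2 forskolin libraries. Of Nr4a3, the transcript Nr4a3-001 (8 exons, 5720 bases, 1881 of them coding) stood at 10.8 and 7.77 CPM with forskolin, 0.0122 and 0.00512 CPM with cAMP and under 1 read in the control. Both cAMP libraries were also under 1 read of it. Nr4a3-004, which starts 3961 bases further downstream and has the weakest support level, 5, stood at 32.1 and 1.99 CPM with forskolin, 4.59 and 1.93 CPM with cAMP and 1 read in the control. It held 74.8% and 17.9% of the gene's value with forskolin and 99.7% in both cAMP libraries, there about 237 and 66 reads.

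Of Nr4a2, the coding transcript Nr4a2-001 (8 exons, 1794 coding bases, also support level 5) stood at 7.67 and 0.588 CPM with forskolin and under 1 read in both cAMP libraries and the control. Nr4a2-002, annotated as a target of nonsense-mediated decay, stood at 2.52 and 0.892 CPM with forskolin and 0.898 and 0.491 CPM with cAMP. It made up 15.6% and 30.4% of the gene's value with forskolin and 98.7% in both cAMP libraries, there about 46 and 17 reads. Nr4a2-003 has the same number of coding bases as Nr4a2-001 and starts 8965 bases downstream. It stood at 1.98 CPM in forskolin 1 and under 1 read in forskolin 2 (0.00775 CPM) and with cAMP. Nr4a2-006, a coding transcript that starts 10931 bases downstream, stood at 2.64 and 1.198 CPM with forskolin and under 1 read in both cAMP libraries and the control. It held 16.3% and 40.8% of the gene's value with forskolin, the largest share in forskolin 2.

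The split of a gene's reads among transcripts is an estimate of the authors' software, since transcripts share exons, and the minor shares were nearly the same in both cAMP libraries (0.265% for Nr4a3-001 in each, 1.12% for Nr4a2-001 in each). In a limma fit over 27764 transcripts, added after the values were seen, none was called between forskolin and cAMP, with 1500 at an unadjusted p under 0.05. Of the tested NR4A transcripts, Nr4a3-001 had an unadjusted p of 0.000615 there and Nr4a2-006 of 0.0330. Against the control, Nr4a3-001 and the Nr4a1 transcript passed in that fit with forskolin (adjusted p = 0.0295 and 0.0331), where 14.6% of transcripts were called higher. With Nr4a3-004 alone in place of the gene sum, the difference between forskolin and cAMP was 1.30 log2 units (adjusted p = 0.480).

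**Figure D4:**
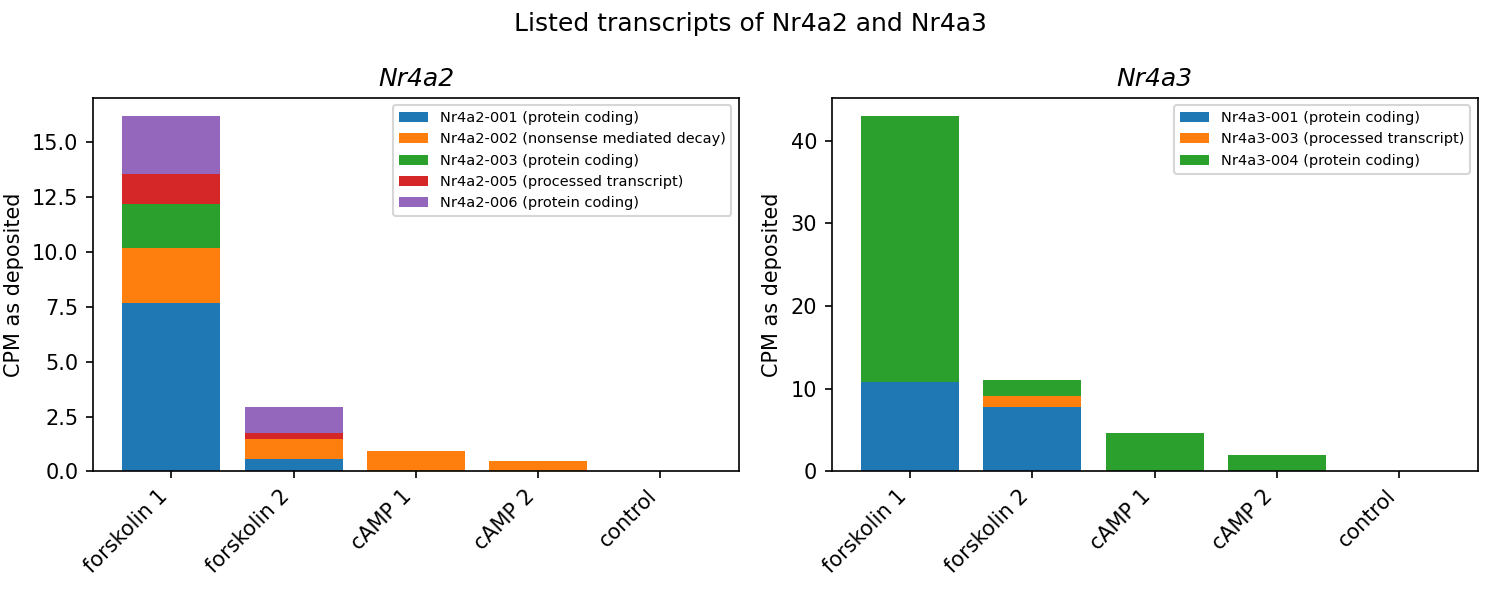
CPM as deposited of each listed transcript of Nr4a2 (left) and Nr4a3 (right), stacked, per library. With cAMP nearly the whole bar is Nr4a2-002 or Nr4a3-004, whereas the forskolin libraries also hold Nr4a2-001, Nr4a2-006 and Nr4a3-001.

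Other immediate-early and cAMP-induced genes, a list of 27 that includes the AP-1 and EGR families, rose with forskolin in 26 cases as deposited and 13 with median-of-ratios scaling, with medians of 2.72 and 1.30 log2 units beside 1.69 and 0.21 over all genes, of which 66.3% and 14.9% were called higher. With cAMP 20 rose as deposited; with scaling 12 rose and 1, Klf4, fell, beside 65.1% and 15.4% of all genes called higher. Between forskolin and cAMP, 1 of the 27 passed as higher as deposited and none with scaling, with 7 higher and 2 lower at an unadjusted p under 0.05 as deposited and 10 and 2 with scaling (limma). The one was Fosl1, an AP-1 subunit, at 12.7 and 3.999 CPM with forskolin, 2.65 CPM and under 1 read with cAMP, and under 1 read in the control (2.11 log2 units, adjusted p = 0.0350; 1.97 and 0.108 with scaling). The next by p were Klf4, a factor of epidermal differentiation, at a difference of 1.38 (adjusted p = 0.312), Fosb, another AP-1 subunit, at 1.33 (0.340), and Egr1, a growth-factor-induced zinc finger factor, at -1.28 (0.370).

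Egr1 had the opposite sign to the NR4A genes, at 64.4 and 35.0 CPM with forskolin and 147 and 92.8 CPM with cAMP. In the control Egr1 was at 4.41 CPM, and it rose with both treatments on both scales.

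Of the 46 other nuclear receptor genes, 25 were tested. With forskolin 18 rose as deposited and 5 with median-of-ratios scaling, and with cAMP 18 rose as deposited, and 6 rose and 2 fell with scaling. Those counts are near the shares of all genes called higher, 66.3% and 14.9% with forskolin and 65.1% and 15.4% with cAMP. Between forskolin and cAMP none of the 25 passed in limma on either scale, with 2 higher and 2 lower at an unadjusted p under 0.05 as deposited and 3 and 2 with scaling. Pparg, a regulator of lipid cells, was at 20.6 and 19.7 CPM with forskolin, 55.0 and 40.9 CPM with cAMP and under 1 read in the control. Its difference between forskolin and cAMP was -1.20 log2 units (adjusted p = 0.443).

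RXR proteins pair with NR4A1 and NR4A2 on DNA. Rxra stood at 70.0 and 109.7 CPM with forskolin, 115 and 80.0 CPM with cAMP and 20.8 CPM in the control. Rxrb stood at 29.4 and 33.3 CPM with forskolin, 35.1 and 18.2 CPM with cAMP and 6.46 CPM in the control. Both rose with either treatment as deposited, where 66.3% of all genes were called higher with forskolin and 65.1% with cAMP. With scaling neither passed, with forskolin differences of 0.011 and 0.20 log2 units. On that scale 14.9% and 15.4% of all genes were called higher. Rxrg was not among the listed genes and has no value here.

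Of 13 genes for factors that drive NR4A transcription (CREB, its coactivators, MEF2, SRF and protein kinase A subunits), 11 rose with forskolin and 10 with cAMP as deposited. Of all genes, 66.3% and 65.1% were called higher there. With median-of-ratios scaling, none rose and 1 fell with cAMP, beside 15.4% of all genes called higher and 7.23% lower. On that scale 2 rose and 1 fell with forskolin. With scaling 14.9% of all genes were called higher with forskolin, so 2 of 13 is near the share over all genes. The 2 were Creb1 and Mef2d, at 1.61 (limma adjusted p = 0.0103) and 1.22 (0.0270) log2 units, and Mef2a was the one that fell with each treatment. None of the 13 passed between forskolin and cAMP in limma on either scale, with 2 higher and none lower at an unadjusted p under 0.05 on each. The coactivator gene Crebbp was at 35.9 and 42.5 CPM with forskolin and 17.1 and 18.2 CPM with cAMP (1.10 log2 units, adjusted p = 0.557).

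**Figure D5:**
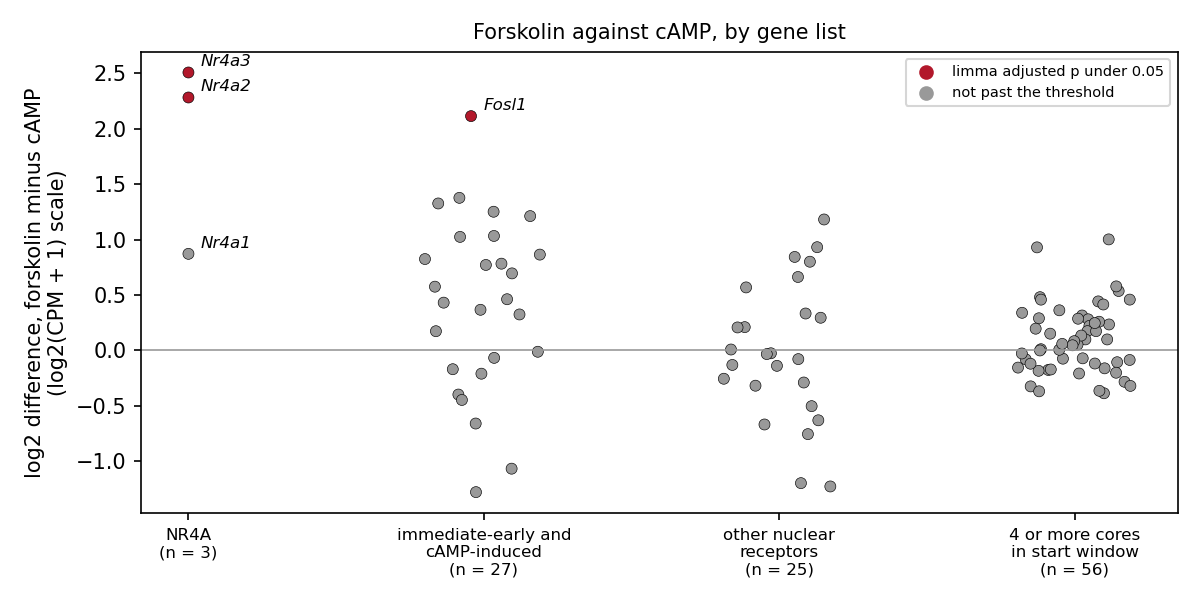
Log2 difference of forskolin minus cAMP as deposited for the 3 NR4A genes, 27 immediate-early and cAMP-induced genes, 25 other nuclear receptors and 56 genes with 4 or more TGACG cores in the start window; red points passed limma's threshold. Nr4a2, Nr4a3 and Fosl1 are the red points.

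Markers of other cells and of tissue handling moved in the same libraries. In bulk tissue, fewer cells of a type and less RNA per cell cannot be told apart. The 10 T cell and NK cell markers summed to 862 and 497 CPM with forskolin, 610 and 415 CPM with cAMP and 125 CPM in the control. The 10 Langerhans cell and macrophage markers summed to 775 and 473 CPM with forskolin, 705 and 283 CPM with cAMP and 105 CPM in the control. None of these 20 markers was under the level of 3 reads in any library. Both sums, as CPM, were highest in forskolin 1 and lowest in the control, and higher in cAMP 1 than in cAMP 2, as the NR4A levels were. They were also higher in cAMP 1 than in forskolin 2, as Nr4a1 was, whereas Nr4a2 and Nr4a3 were higher in forskolin 2. The order of these sums was not particular to these cells. The 9 keratinocyte markers had it too, at 7450 and 6032 CPM with forskolin, 7012 and 3108 CPM with cAMP and 2178 CPM in the control. As deposited all 10 T cell and NK cell markers rose with forskolin and with cAMP, beside 66.3% and 65.1% of all genes called higher. With median-of-ratios scaling none of the 10 passed in limma, with none at an unadjusted p under 0.05. Of the 10 Langerhans cell and macrophage markers 6 rose with each treatment as deposited, near those shares. With scaling 1 rose and 1 fell with forskolin, and 1 rose and none fell with cAMP. On that scale 14.9% and 15.4% of all genes were called higher, and 6.79% and 7.23% lower. Of the 9 keratinocyte markers 5 rose with forskolin and 1 with cAMP as deposited. With scaling none of them rose, and 2 fell with forskolin and 5 with cAMP.

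The 13 heat shock and dissociation stress genes summed to 1263 and 1188 CPM with forskolin, 1644 and 1082 CPM with cAMP and 337 CPM in the control. Of them 10 rose with forskolin and 11 with cAMP as deposited. With scaling 1 rose and 1 fell with forskolin, and 1 rose and 2 fell with cAMP. Of all genes, 66.3% and 14.9% were called higher with forskolin and 65.1% and 15.4% with cAMP, as deposited and with scaling. The counts of these 13 genes lay somewhat above those shares as deposited and somewhat below them with scaling. The 8 dermal fibroblast markers summed to 16.2 and 211 CPM with forskolin, 119 and 266 CPM with cAMP and 151 CPM in the control, with forskolin 1 the lowest library. Of the 7 tested, 1 rose and 3 fell with forskolin as deposited and 5 fell with scaling. With cAMP none passed in limma as deposited, with none at an unadjusted p under 0.05, and 2 fell with scaling. Of all genes, 0.341% were called lower with forskolin and 0.436% with cAMP as deposited, and 6.79% and 7.23% with scaling.

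The 8 sebaceous gland markers, Pparg among them, summed to 1405 and 2255 CPM with forskolin, 4660 and 5297 CPM with cAMP and 158 CPM in the control. Both forskolin libraries lay below both cAMP libraries, the reverse of Nr4a2 and Nr4a3. Between forskolin and cAMP 1 of the 8 fell as deposited and 3 with scaling, with 7 and 8 lower at an unadjusted p under 0.05 (limma). Of all genes, 0.189% and 0.320% were called lower there. The 8 melanocyte markers summed to 103 and 256 CPM with forskolin, 256 and 258 CPM with cAMP and 28.9 CPM in the control, none under the level of 3 reads in any library. Forskolin 1, where the NR4A genes were highest, was the lowest treated library for them. Of the 8, 6 rose with each treatment as deposited, beside 66.3% and 65.1% of all genes with forskolin and cAMP. With scaling none passed with forskolin in limma, with none at an unadjusted p under 0.05, and 2 rose with cAMP. On that scale 14.9% and 15.4% of all genes were called higher. Mast cell markers summed to at most 1.94 CPM and endothelial markers to at most 5.43 CPM in any library. The part of these cells or of handling in the NR4A differences was not tested.

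Genes whose profile over the 5 libraries lay closest to a member were found from the distance between log2(CPM + 1) values, each centred on its mean over the libraries; n is 5 libraries that share their totals, and the measure is a description. For Nr4a1 the nearest were Ltc4s, which makes leukotriene C4 (distance 0.42 log2 units), the stress-induced factor Atf3 (0.42), Neurl3 (0.66), the cytokine receptor subunit Csf2rb (0.72) and Plscr1 (0.72). Atf3 stood at 45.7 and 10.0 CPM with forskolin, 24.2 and 8.16 CPM with cAMP and 1.70 CPM in the control. For Nr4a2 they were the urokinase receptor gene Plaur (0.79), P2ry10 (0.83), the EGF family ligand gene Epgn (0.91), the hyaluronan synthase gene Has3 (0.97) and the laminin gene Lama1 (1.02). For Nr4a3 they were Vps37b (0.54), Rfx2 (1.03), the thrombospondin gene Thbs1 (1.27), Neurl3 (1.28) and Fosl1 (1.39). Among themselves, Nr4a2 and Nr4a3 were 1.33 log2 units apart, Nr4a1 and Nr4a3 1.68 and Nr4a1 and Nr4a2 1.88, so Nr4a2 lay closer to Nr4a3 than Fosl1 did. NR4A genes were left out of each other's nearest 5 by the rule.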

How the data were processed

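RNA-seq libraries of total mouse epidermis were used, 2 with forskolin, 2 with cAMP and 1 untreated. Library preparation kept strand and selected mRNA, per the labels' protocols. The submitters' processing notes name STAR, Partek and bcl2fastq 2.17; build, annotation and settings are not given in the sources used here. CPM values were deposited by the authors for 59869 transcripts, a unit read from the values. Among genes summing to 0.5 to 20 reads, 59.6% to 75.7% per library lay less than 0.1 from a whole read, where uniform values would give 20%. Whole reads were thus not recovered for enough genes, and the tests between groups used no count model. Only the read ratios of the NR4A genes used values rounded to reads. Columns were matched to samples by library code and number.

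Transcripts were summed to 21667 genes; 3 transcripts without a gene were left out. Of the transcripts, 98.3% were in GENCODE M21 (GRCm38), 90.8% of those with the same start and end; ends are given with the table's extra base removed. Tests covered the 13764 genes that reached 1 CPM in 2 or more libraries, with limma 3.58.1 in R 4.3.3: trend, log2(CPM + 1), all 5 libraries in 3 groups, 2-sided, Benjamini-Hochberg over all genes at 0.05. That scale understates the change of low genes. Residual degrees of freedom were 2 and prior ones 360.2 (16.4 with median-of-ratios scaling). The single control was assumed to vary as the treated libraries did. Size factors were 1.41 and 1.31 for forskolin, 1.64 and 1.12 for cAMP and 0.325 for the control, from 11935 genes above 0.05 CPM in every library. Read ratios used exact binomial intervals at 95%, on values rounded to reads and pooled over the 2 libraries of a treatment. These intervals do not cover the spread between libraries. The fit was also run on simulated libraries drawn from the same gene means. These lacked the control's shift in make-up and the wide NR4A replicate gaps, so that run does not test the fit under them. All 3 sequences matched RefSeq by symbol.

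Named genes were the members, the 5 tested genes nearest each member without predicted or clone names, and up to 4 of each described list by smallest p for forskolin against cAMP; Mef2a was added after its values were seen. The members and lists were chosen with earlier results of these data known.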

Additional observations from a re-analysis of the deposited data

How the results depend on the processing

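The rise of Nr4a3 with forskolin passed under all 14 other settings; other calls did not all hold, and the cause was not tested. Leaving out a library, where the lone one is assumed to vary as the others, gave forskolin-control differences (log2) of 2.54 to 4.33 for Nr4a1, 1.95 to 4.08 for Nr4a2 and 3.57 to 5.43 for Nr4a3, cAMP-control differences of 1.90 to 3.23, 0.55 to 0.90 and 1.52 to 2.46, and forskolin-cAMP differences of -0.024 to 1.77, 1.22 to 3.35 and 1.58 to 3.44. With median-of-ratios scaling as well (chosen after seeing the data), the ranges were 0.99 to 2.65, 1.61 to 3.55 and 3.15 to 4.89, then 0.56 to 1.37, 0.44 to 0.55 and 1.36 to 1.84, then 0.021 to 1.69, 1.11 to 3.05 and 1.55 to 3.28; Nr4a1 passed between forskolin and cAMP without forskolin 2 there (limma adjusted p = 0.0164). On that scale the forskolin rise of Nr4a1 (1.82) was lost without either cAMP library, and the forskolin-cAMP call of Nr4a3 was lost without forskolin 1 (1.55), cAMP 1 (2.66) or cAMP 2 (2.175). Nr4a2, not past the threshold on that scale, passed there without forskolin 2 (3.05, adjusted p = 0.000191) but not without forskolin 1 (1.11), cAMP 1 (2.13) or cAMP 2 (2.03), whereas Nr4a3 passed for cAMP without either forskolin library (adjusted p = 0.0266 and 0.0183). Calls against the control were lost for cAMP with median-of-ratios scaling (Nr4a1 0.97, Nr4a3 1.60), quantile normalization (0.82, 0.53), scaling to nuclear reads (0.98, 1.61) and no filter (2.56, 1.99), and for Nr4a3 with a pseudocount of 5 (0.70). For forskolin they were lost with quantile normalization (Nr4a1 1.68, Nr4a2 1.45) and, for Nr4a2, no filter (3.01). With cAMP Nr4a2 turned to -0.57 under quantile normalization and passed with a pseudocount of 0.1 (2.69). Between forskolin and cAMP, Nr4a2 was lost with median-of-ratios scaling (2.08), quantile normalization (2.02), scaling to nuclear reads (2.14), a pseudocount of 0.1 (3.18) and no filter (2.28), and Nr4a3 with a pseudocount of 0.1 (2.83), no filter (2.51) and its leading transcript alone (1.30).

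limma called 9177 genes with forskolin against control (99.5% higher), 2985 with median-of-ratios scaling (68.7% higher), 1902 with quantile normalization (53.5% higher), 3076 with scaling to nuclear reads (73.7% higher) and 5283 (without forskolin 1) to 10253 with a library left out. For cAMP the counts were 9025 (99.3% higher), 3121 (68.1%), 2045 (54.2%), 3101 (69.1%) and 7432 to 10198. Between forskolin and cAMP they were 52, 26 in each direction, 16 with a pseudocount of 0.1, 33 with a filter of at least 10 CPM, 0 with no filter (967 at an unadjusted p under 0.05) and, with a library left out, 11 (without cAMP 2) to 70, with 16 without forskolin 2 and 28 without forskolin 1. The share of calls that were higher there was 27.9% of 61 with median-of-ratios scaling, 37.1% of 35 with quantile normalization and 37.3% of 51 with scaling to nuclear reads. With the replicate number as a block, 55 genes passed and Nr4a1 (0.87), Nr4a2 (2.28) and Nr4a3 (2.51) stayed on their side of the threshold; the numbers did not pair the libraries, with a correlation of deviations of -0.05 over 13764 genes. Nr4a2 gave no value with a filter of at least 10 CPM or with its leading transcript alone. The control's single reads of Nr4a2 and Nr4a3 limit every ratio to it.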

Other observations

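Apart from the NR4A genes, 66 genes had 4 or more TGACG cores in their start window, and 56 were tested. This list was made from sequence after the NR4A windows had been seen. With forskolin 45 of the 56 rose as deposited, beside 66.3% of all genes, and with cAMP 44, beside 65.1%. With median-of-ratios scaling, 15 rose and 2 fell with forskolin and 15 rose and 1 fell with cAMP, beside 14.9% and 15.4% of genes called higher. The median difference was 0.38 log2 units with forskolin and 0.34 with cAMP after that scaling, beside 0.21 and 0.20 over all genes. Between forskolin and cAMP none of the 56 passed in limma on either scale, with 1 higher and none lower at an unadjusted p under 0.05 on each.

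Genes reported under NR4A control in liver, muscle, midbrain or T cells numbered 17 on the list, of which 8 were tested. As deposited 1 of the 8 rose with each treatment, beside 66.3% (forskolin) and 65.1% (cAMP) of all genes. Their median difference was 0.91 log2 units with forskolin and 0.93 with cAMP, beside 1.69 and 1.66 over all genes. With median-of-ratios scaling none rose, beside 14.9% and 15.4% of all genes. Lpin1, a phosphatidate phosphatase gene, was at 16.6 and 20.6 CPM with forskolin, 24.0 and 26.9 CPM with cAMP and 3.22 CPM in the control, and was the one that rose as deposited, with each treatment (limma adjusted p = 0.000559 with forskolin and 4.31e-05 with cAMP; 0.486 and 0.144 with median-of-ratios scaling). Ikzf4, a regulatory T cell factor, fell with forskolin: under 1 read and 1.56 CPM with forskolin, 1.36 and 1.70 CPM with cAMP and 4.09 CPM in the control (adjusted p = 0.0225; 0.000745 with scaling). With cAMP Ikzf4 did not pass as deposited (adjusted p = 0.164) and fell with scaling (-2.66 log2 units, adjusted p = 0.00252). None of the 8 passed between forskolin and cAMP in limma, with none at an unadjusted p under 0.05 on either scale.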
